A study of Homo sapiens with 6 samples.

Results

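The keratin genes stand in a pair of clusters, type I on chromosome 17 and type II on chromosome 12, and the members described here are the peaks that overlap them. The windows were set by position on build hg19, as chr17:38800000-39800000 for type I and chr12:52560000-53350000 for type II, with chr12:53290000-53347000, which holds KRT8 and KRT18, kept apart. By this rule 227 of the 149848 peaks in the 4 deposited lists were members. The lists come from chromatin immunoprecipitation followed by sequencing (ChIP-seq) for acetylation (H3K27ac) and trimethylation (H3K27me3) of lysine 27 of histone H3. The cells were NCI-H69 (H69), an established small cell lung cancer line, and H69M, which was obtained from H69 by a published procedure that the labels cite without describing. The labels name no other treatment and do not say whether H69M is a clone. Each mark had 1 library per line, so no difference between the lines has a replicate check or a p-value. Read depth is unknown. The identity of the lines was not checked against marker genes here, since no gene table of build hg19 was used. Sequenced input from the lines (2 libraries) was not analysed here.

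Keratins are the intermediate filament proteins of epithelial cells, and each filament pairs a type I with a type II protein. KRT8 and KRT18 are the pair of simple epithelia, joined by KRT7 and KRT19 in many ducts and airways, and they are kept by many carcinomas. KRT5 pairs with KRT14 or KRT15 in the basal layer of stratified epithelia, KRT1 with KRT10 above it, and the KRT6 forms, KRT16 and KRT17 appear in wounded or activated skin. Hair keratins and the keratin-associated proteins (KRTAP) build the hair shaft. H3K27ac marks active promoters and enhancers, and H3K27me3 is the mark of Polycomb repression. KRT18 is a type I keratin whose gene lies beside KRT8 at the end of the type II cluster.

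The RefSeq gene table lies on GRCh38 and served only for names and for the order of neighbouring genes. It lists 55 keratin and 34 KRTAP genes in the clusters. Type II begins with KRT80 and KRT7, goes on through the hair keratins (KRT86 to KRT82), KRT75, the KRT6 genes, KRT5, the hair follicle keratins KRT71 to KRT74, KRT2, KRT1, KRT77, KRT76, KRT3, KRT4, KRT79 and KRT78, and ends with KRT8 and KRT18. Type I begins with KRT222 and KRT24 to KRT28 and goes on through KRT10, KRT12, KRT20, KRT23, KRT39 and KRT40, the KRTAP genes and the hair keratins KRT33A to KRT36. It ends with KRT13, KRT15, KRT19, KRT9, KRT14, KRT16 and KRT17. Below, genes are named only to say which part of this order a stretch of a window belongs to, and single peaks are not assigned to single genes.

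Promoter sequences came from RefSeq on GRCh38.p14, and 34 of the keratin and 33 of the KRTAP genes had one. Those printed are KRT8, for the pair kept apart, KRT5, as a keratin of stratified epithelia, and the 4 KRTAP2 genes, as hair genes of which some share long runs. Each run reads 5′ to 3′ and ends at the base before the listed start, over 250 bases for KRT8 and KRT5 and 100 for the KRTAP2 genes. Capitals mark, on either strand, TATAAA (the TATA box), TGANTCA (the AP-1 site), GGGCGG (the GC box), ACCGGT (the core of the grainyhead site) and CAGGTG (an E-box bound by ZEB and SNAIL proteins, CACCTG on the other strand).
KRT8, chr12:52926470-52926719, minus strand: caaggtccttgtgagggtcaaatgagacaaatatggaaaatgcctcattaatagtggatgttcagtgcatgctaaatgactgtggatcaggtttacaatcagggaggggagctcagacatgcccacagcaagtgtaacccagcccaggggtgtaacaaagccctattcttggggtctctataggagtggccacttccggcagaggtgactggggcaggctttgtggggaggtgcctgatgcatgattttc
KRT5, chr12:52520395-52520644, minus strand: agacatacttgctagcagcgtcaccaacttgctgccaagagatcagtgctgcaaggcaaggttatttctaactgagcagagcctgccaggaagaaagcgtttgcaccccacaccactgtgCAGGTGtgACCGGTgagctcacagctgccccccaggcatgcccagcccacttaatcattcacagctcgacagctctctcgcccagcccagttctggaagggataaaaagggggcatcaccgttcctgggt
KRTAP2-1, chr17:41047317-41047416, minus strand: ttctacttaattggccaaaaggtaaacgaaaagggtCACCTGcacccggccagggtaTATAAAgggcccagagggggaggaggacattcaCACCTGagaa
KRTAP2-2, chr17:41055231-41055330, minus strand: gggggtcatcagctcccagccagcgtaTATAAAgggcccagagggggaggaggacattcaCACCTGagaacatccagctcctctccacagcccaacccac
KRTAP2-3, chr17:41060115-41060214, minus strand: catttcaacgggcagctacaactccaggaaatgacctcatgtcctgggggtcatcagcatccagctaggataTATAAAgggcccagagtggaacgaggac
KRTAP2-4, chr17:41065880-41065979, minus strand: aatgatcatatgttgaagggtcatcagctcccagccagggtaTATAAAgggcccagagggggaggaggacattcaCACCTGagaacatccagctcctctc

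The KRT8 stretch, for the one start the table lists, held none of the 5 motifs. Any other start of KRT8 was not scanned, so this does not describe all promoters of the gene. The KRT5 stretch held CAGGTG and ACCGGT, and each of the 4 KRTAP2 stretches held TATAAA. In KRTAP2-1, KRTAP2-2 and KRTAP2-4 it was followed by CACCTG. The KRTAP2-3 stretch ended before the matching place, so it does not show whether KRTAP2-3 has CACCTG there. Over 250 bases TATAAA was present in 21 of 38 keratin promoters (55.3%) and 29 of 33 KRTAP promoters (87.9%), against 10.7% of all 35116 promoters in the table. GGGCGG was present in 4 keratin (10.5%) and 0 KRTAP promoters, against 42.6% of all. TGANTCA was present in 0 keratin and 4 KRTAP promoters (12.1%), against 6.57% of all. ACCGGT was present in 1 keratin promoter, that of KRT5, and in 1.45% of all. CAGGTG was present in 6 keratin (15.8%) and 6 KRTAP promoters (18.2%), against 17.5% of all. The median number of CG dinucleotides was 2 for keratin and 1 for KRTAP promoters, against 11 for all. These are matches of letters on GRCh38 and were not placed on the hg19 peaks.

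H3K27ac lay mostly in the last 200 kb of type I and in the first 200 kb of type II outside the KRT8 and KRT18 interval. Its length was smaller in H69M than in H69 in type I, and greater in type II by about the ratio of the whole lists. In the type I window its peaks covered 37.0 kb for H69 (24 peaks) but 33.2 kb for H69M (21 peaks), which is 0.897 of the H69 length. In type II without the KRT8 and KRT18 interval the lengths were 41.7 kb (26 peaks) and 62.5 kb (22 peaks), or 1.5 times the H69 length. Inside the interval they were 8.86 kb (6 peaks) and 15.1 kb (7 peaks), or 1.70 times. Over all peaks of the lists H69M covered 1.59 times the H69 length, so type I stood on the other side of 1 from the lists. The ratios of type II and the interval lay near that of the lists. With equal numbers of peaks the type II ratio was 1.43 and that of the interval 1.60, beside 1.42 over the lists. Less H3K27ac length in H69M than in H69 was found in 11.1% of 2757 bins of 1 Mb, and the type I window is of that size.

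H3K27me3 showed small, weak peaks in both clusters and none in the KRT8 and KRT18 interval in either line. The interval is only 57 kb long, and gaps between neighbouring H3K27me3 peaks in the rest of type II reached 108 kb in H69 and 158 kb in H69M. A lack of peaks over such a length is thus not particular to the interval. In type II the peaks lay mostly in the middle of the window. In type I they were most numerous in its first 200 kb, with 7 and 6 peaks per 100 kb in H69 and 12 and 10 in H69M. Its length in type I was 4.72 kb for H69 (24 peaks) and 11.2 kb for H69M (62 peaks), 2.38 times as much, beside 1.62 times over the lists. In type II outside the interval the lengths were 3.18 kb (13 peaks) and 3.65 kb (22 peaks), 1.15 times. At least 2 times the H69 length was found in H69M in 42.3% of 1978 bins of 1 Mb, a count that takes in any bin with no H69 peak. By this count a value of 2 or more was not rare, but the share of bins at 2.38 or more was not counted. With equal numbers of peaks in both lists, the type I ratio was 1.59 and the type II ratio 0.797, on the other side of 1. The ratio over the lists was then 1.16, so type I stayed above it.

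**Figure D1:**
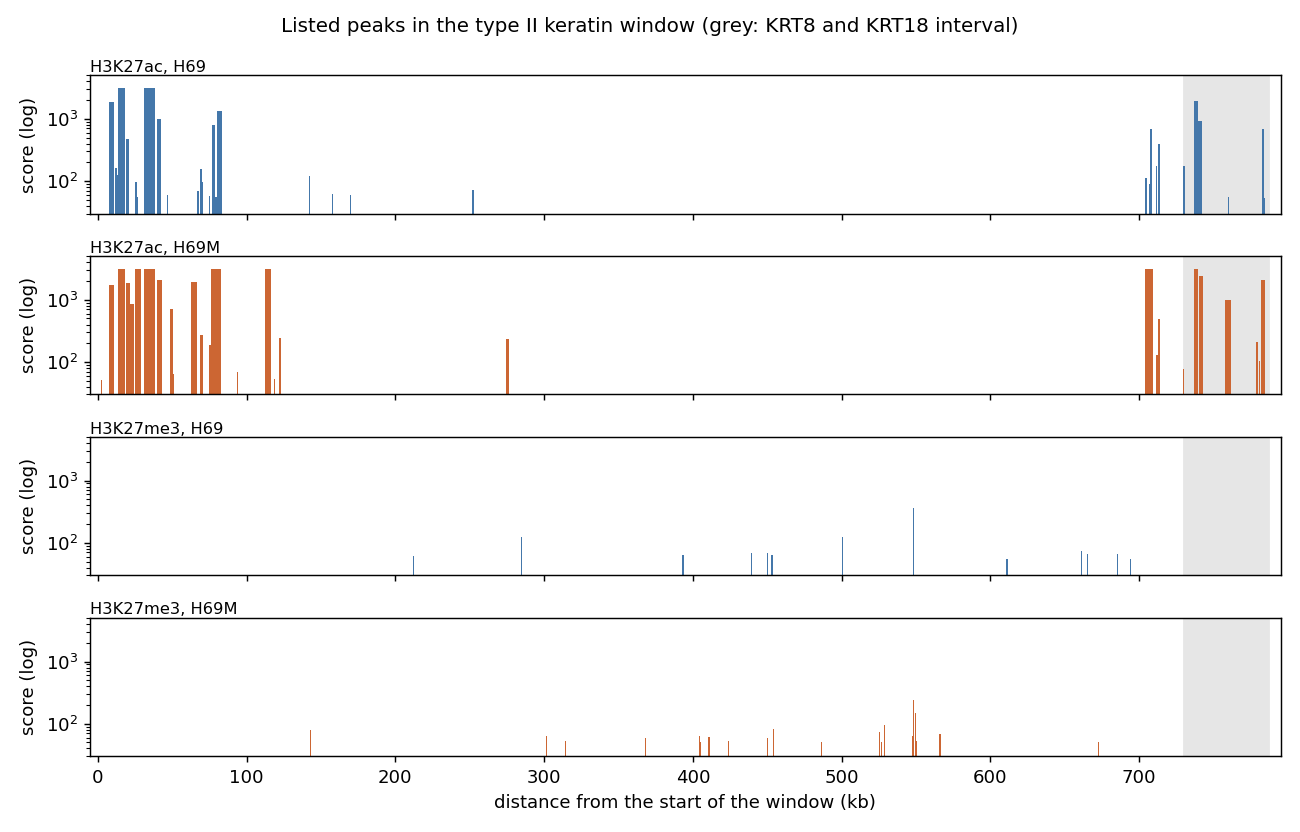
Listed peaks of the type II window by distance from its start (kb, x axis) and by the authors' score (y axis, log scale), one panel per mark and line, with short bars widened to be seen and the KRT8 and KRT18 interval in grey. H3K27ac stands at both ends of the window and H3K27me3 in between, with no H3K27me3 peak in the grey interval, which is 57 kb long.

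The interval of KRT8 and KRT18, the simple epithelial pair, had H3K27ac and no H3K27me3 peak in both lines. At 57 kb it is shorter than the widest H3K27me3 gaps in the rest of type II given above. Of the 4 places with H3K27ac in the interval, the strongest lay in its lower part, where KRT8 comes first in the order. The peak chr12:53296998-53299679 of H69 had a score of 1947, and chr12:53296917-53299778 of H69M had 3100, a value at which scores pile up and peaks cannot be ranked. The peaks next to them, chr12:53299736-53302213 in H69 and chr12:53300105-53302956 in H69M, had scores of 919.4 and 2408. Together they spanned 5.16 and 5.71 kb, a ratio of 1.11, so the lines differed here in score more than in length.

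The other places of the interval differed more in length. In its middle, H69 had a peak of 543 bp with a score of 55.3 (chr12:53319475-53320017), and H69M one of 4.03 kb with a score of 987.2 (chr12:53317809-53321837), 7.42 times as long. Toward the upper end, where KRT18 comes last in the order, H69 had peaks with scores of 680.6 (chr12:53342272-53343711) and 53.9 (chr12:53343803-53344295). H69M had 1 peak over both, with a score of 2111 (chr12:53341959-53344442), and 2 more before it that overlapped no H69 peak, with scores of 207.1 and 101.9. The lengths at this place were 1.93 and 4.41 kb, a ratio of 2.28. At the lower bound of the interval the order was the other way, with a score of 175.6 over 1.22 kb in H69 (chr12:53289303-53290522) and 78.3 over 0.904 kb in H69M (chr12:53289369-53290272). All 6 H69 peaks of the interval overlapped an H69M peak, and 5 of the 7 H69M peaks an H69 peak.

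The end of type II at which KRT80 and KRT7 stand carried most of the remaining H3K27ac. KRT7 is a keratin of simple and ductal epithelia. The first 200 kb of the window held 35.6 kb for H69 and 52.4 kb for H69M. These were 85.5% and 83.9% of the H3K27ac length of type II outside the KRT8 and KRT18 interval. Both lines had 2 wide peaks with a score of 3100 there. The first was chr12:52573823-52578299 in H69 and chr12:52573857-52578634 in H69M, of 4.48 and 4.78 kb. The second was chr12:52590858-52598534 and chr12:52590833-52598522, of 7.68 and 7.69 kb. At these places the peaks of the lines nearly coincided. So did a peak near the window start, chr12:52567467-52570801 in H69 (score 1857) and chr12:52567482-52570647 in H69M (1706), while at chr12:52600105-52602751 the H69 peak had 1001 and its H69M counterpart 2057.

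Between and after them the lines differed. H69M had a peak of 4.08 kb with a score of 3100 at chr12:52584746-52588824, whereas H69 had 2 peaks of 883 and 575 bp within it, with scores of 95.4 and 56.4. H69M had a peak of 3.71 kb with a score of 1955 (chr12:52622965-52626669) that no H69 peak overlapped, and the nearest H69 peak, chr12:52627026-52627695, had a score of 70.2. Farther on, H69M had 1 peak of 6.68 kb with a score of 3100 (chr12:52636098-52642780) where H69 had 3, with scores of 809.7, 54.6 and 1345. All 3 places thus had some H3K27ac in H69 in or next to the wider peak of H69M.

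At chr12:52672287-52676598 H69M had a peak of 4.31 kb with a score of 3100 and no H69 peak within 5 kb. It was 1 of 9 H69M members at that score, and the other 8 overlapped an H69 peak. Over the whole list, 1.49% of the 6023 H69M H3K27ac peaks at that score had no H69 counterpart. H69M had 2 weaker peaks after it, with scores of 52.8 and 240.7. Beyond these, H69 had 4 weak peaks that H69M lacked, from chr12:52701758-52702876 (score 122.3) to chr12:52811752-52812807 (71.4). H69M had 1 that H69 lacked, at chr12:52834482-52836462 (237.7).

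From there to chr12:53263954 neither line had an H3K27ac peak, over 427 kb. This is the middle of the window, and in the order the middle of the cluster holds the keratins of stratified epithelia and hair follicles. Of the H3K27me3 peaks of the window, 12 of 13 in H69 and 20 of 22 in H69M lay there, over 2.99 and 3.38 kb. The gap ended shortly before the KRT8 and KRT18 interval. There H69M had a peak of 5.65 kb with a score of 3100 (chr12:53263955-53269601), and H69 had 3 peaks of 981, 638 and 905 bp within it, with scores of 112.6, 88.9 and 685.7. A pair of peaks beside it was listed in both lines, with scores of 175.7 and 400.9 in H69 and 129.6 and 497.8 in H69M.

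**Figure D2:**
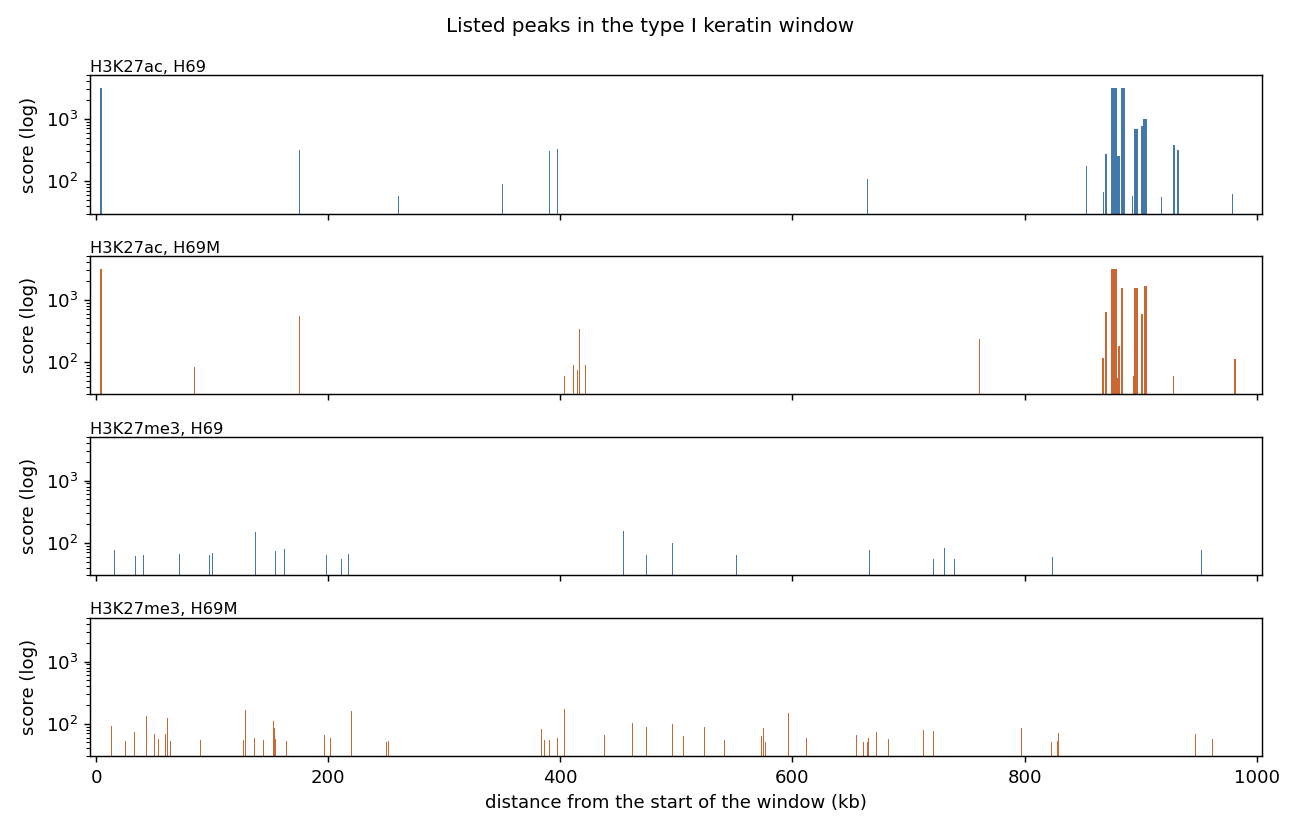
Listed peaks of the type I window by distance from its start (kb, x axis) and by the authors' score (y axis, log scale), one panel per mark and line, with short bars widened to be seen. The widest H3K27ac peaks of both lines stand in the last 200 kb, and H3K27me3 has 24 peaks in H69 and 62 in H69M.

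In type I, the last 200 kb held 30.7 kb of H3K27ac for H69 (82.8% of that in the window) and 24.8 kb for H69M (74.7%). This is the end at which the order has KRT15 of basal cells, KRT19 of simple epithelia, KRT9 of palm and sole, and KRT14, KRT16 and KRT17. The widest peak of the window, chr17:39674188-39679530 in H69 and chr17:39674115-39679402 in H69M, had a score of 3100 in both lines and was 5.34 and 5.29 kb wide. Next to it, H69 had a peak of 4.04 kb with a score of 3100 (chr17:39682845-39686884), and H69M one of 1.83 kb with a score of 1557 (chr17:39683054-39684880). The stretch around both held 14.8 kb of peaks in H69 against 13.1 kb in H69M. Both lines thus listed it, at a slightly shorter length in H69M.

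Farther along, H69 had peaks at chr17:39694178-39697783, chr17:39700350-39702055 and chr17:39702334-39705881 with scores of 698.9, 767.3 and 1009, and their H69M counterparts had 1523, 586.2 and 1637. After a lone H69 peak with a score of 55.2 (chr17:39717903-39718523) came a stretch that was longer in H69, with peaks of scores 381.6 and 317.4 over 3.64 kb, against 1 of 60.1 over 0.996 kb in H69M, a ratio of 0.274. The last of the window was weak in both lines, with a score of 61.9 in H69 (chr17:39778687-39779230) and 113.0 in H69M (chr17:39780643-39781979), and these peaks did not overlap.

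At the other end of type I, toward KRT222, a peak with a score of 3100 was listed in both lines, chr17:38803447-38805086 in H69 and chr17:38803231-38805334 in H69M. After it, 1 more place had a peak in both, with a score of 321.0 over 853 bp in H69 (chr17:38974809-38975661) and 553.0 over 783 bp in H69M (chr17:38974924-38975706). No other H3K27ac peak was shared between the lines until the last 200 kb.

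The middle of the type I window, from 39.1 to 39.5 Mb, held few and weak H3K27ac peaks, and in the order the middle of this cluster holds the KRTAP genes. H69 had 4 there, with scores of 89.6, 304.9 (chr17:39190307-39191301), 328.9 (chr17:39197029-39197909) and 106.7 (chr17:39464568-39465359). H69M had 5, from chr17:39203097-39203588 (58.8) to chr17:39221651-39222217 (88.0), the strongest being chr17:39215733-39216965 (337.4). No peak of one line overlapped a peak of the other. Some KRTAP2 promoters share long runs: the 250 bases before KRTAP2-2 and KRTAP2-4 share a run of 61 bases, those of KRTAP2-1 and KRTAP2-4 one of 52, and those of KRTAP2-1 and KRTAP2-2 one of 46, all longer than the reads of 38 nucleotides per end. The pairs with KRTAP2-3 share runs of 18 or 19 bases, shorter than the reads. Only these 250 bases were compared, not the genes themselves, and run lengths were set against single ends rather than read pairs. The treatment of reads that match several copies is not given in the sources used here, and its part in these peaks was not tested.

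**Figure D3:**
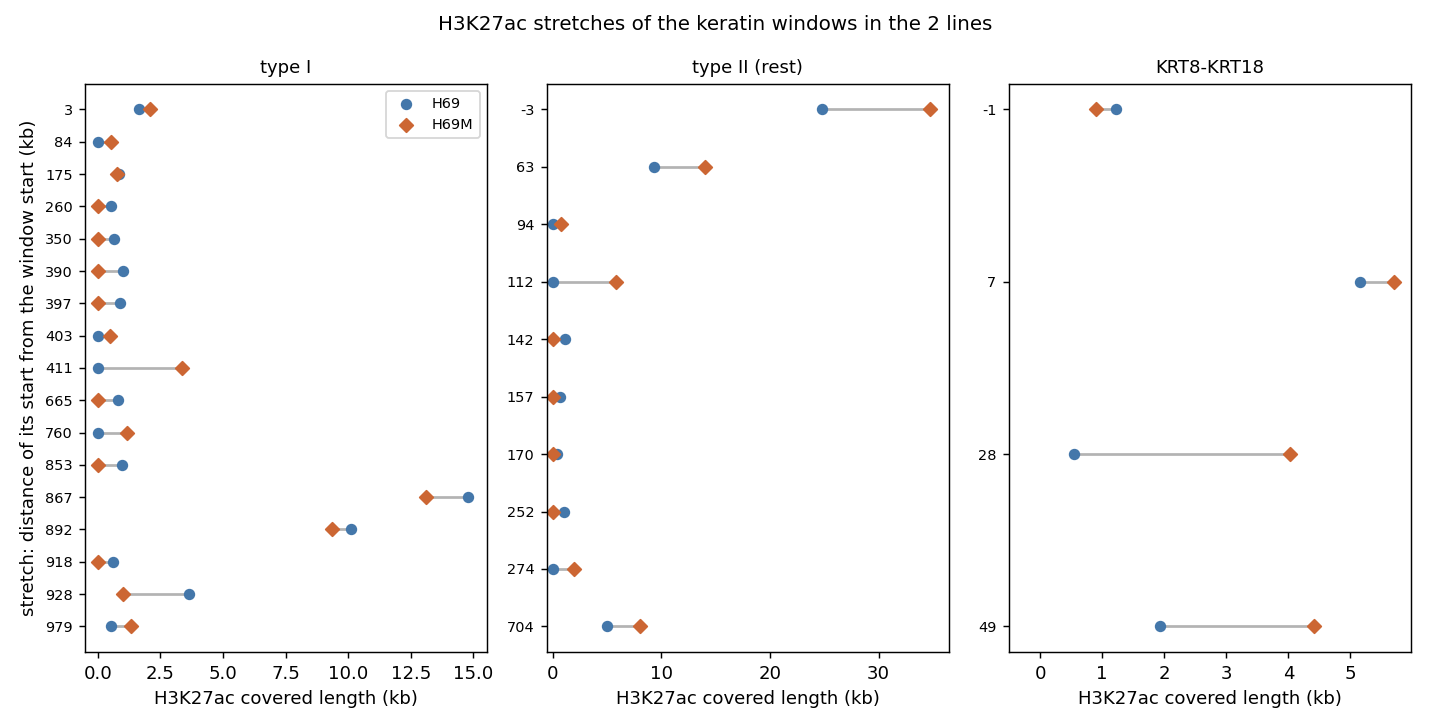
Covered length of H3K27ac (kb, x axis) in H69 (circles) and H69M (diamonds) for each of the 31 stretches of the windows, in order of distance from the window or interval start (y axis, kb, not to scale). The stretches at 867 and 892 kb of type I are shorter in H69M, and those at 63 and 704 kb of type II are longer. The first type II stretch includes peaks before the window start.

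Peaks of either line no more than 5 kb apart were joined into stretches, 31 of which touched the windows. In type I, 6 of 17 stretches held peaks of both lines, 7 of H69 alone and 4 of H69M alone. In the rest of type II, the numbers were 3, 4 and 3 of 10, and in the KRT8 and KRT18 interval 4, 0 and 0 of 4. In all, 11 of 31 stretches were of H69 alone, against 11% of the 35761 stretches of the whole lists, and 7 of H69M alone, against 32.9%. Of the stretches with both lines, H69M had the greater length in 2 of 6 in type I, 3 of 3 in type II and 3 of 4 in the interval. The same share was not counted over the 20055 stretches with both lines of the whole lists. There H69M covered 1.59 times the H69 length, so these counts are not shown to be particular to the windows. The 11 stretches of H69 alone held 1 peak each, with scores from 55.2 to 328.9.

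**Figure D4:**
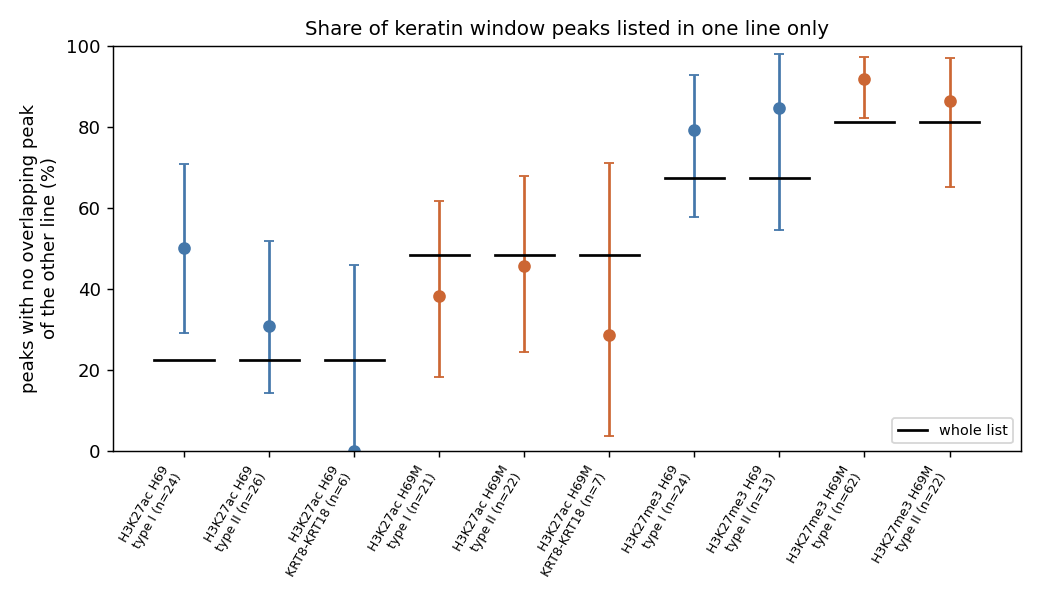
Percent of members with no overlapping peak of the same mark in the other line (y axis, points with exact 95% binomial intervals) for each list and window (x axis), beside the percent over the whole list (black lines). The H69 H3K27ac peaks of type I, at 50%, and the H69M H3K27me3 peaks of type I, at 91.9%, have intervals above their lines.

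Of the 24 type I H3K27ac peaks in H69, 12 had no overlapping H69M peak (50%, exact 95% interval 29.1 to 70.9), against 22.5% of the whole H69 list. In the rest of type II it was 8 of 26 (30.8%, 14.3 to 51.8), and in the KRT8 and KRT18 interval 0 of 6 (0 to 45.9). The type I peaks without a counterpart were weak, with a median score of 89.6 and a highest of 329. In the other direction, 8 of 21 type I H69M peaks (38.1%, 18.1 to 61.6), 10 of 22 in type II (45.5%, 24.4 to 67.8) and 2 of 7 in the interval (28.6%, 3.67 to 71.0) had no H69 counterpart, against 48.4% of the whole H69M list. These intervals describe counting error alone, and neighbouring peaks are not independent of each other.

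For H3K27me3, 57 of 62 type I peaks of H69M had no overlapping H69 peak (91.9%, 82.2 to 97.3), against 81.1% of the H69M list, and 19 of 22 in type II (86.4%, 65.1 to 97.1). Of the H69 peaks, 19 of 24 in type I (79.2%, 57.8 to 92.9) and 11 of 13 in type II (84.6%, 54.6 to 98.1) had no H69M counterpart, against 67.4% of the H69 list. These peaks were short and mostly near the lowest score of about 50. In type I their median width was 183 bp in H69 and 160 bp in H69M, and their median scores were 66.4 and 66.8. In type I, 91.7% of the H69 and 82.3% of the H69M peaks scored under 100, beside 86.2% and 81.9% of the whole lists.

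The strongest H3K27me3 place of the clusters was listed in both lines, at chr12:53107924-53108490 in H69 (score 368.0) and as chr12:53107811-53108126 (242.8) and chr12:53108167-53108538 (135.9) in H69M. It lay within the 427 kb of type II that had no H3K27ac, and H69M had a further peak beside it with a score of 147.7. The next strongest of type II in H69 were chr12:52844231-52844591 (125.4) and chr12:53060434-53060795 (124.0), and no H69M peak overlapped either. In type I the strongest were chr17:39253945-39254329 (152.7) and chr17:38936802-38937042 (152.1) in H69. In H69M they were chr17:39203074-39203419 (171.2), chr17:38928126-38928421 (163.2) and chr17:39019426-39019613 (159.3). None of these 5 type I peaks overlapped a peak of the other line.

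Next in score in type I of H69M were chr17:39396299-39396575 (146.6) and chr17:38961532-38961942 (145.1), and the latter overlapped an H69 peak with a score of 80.3. Next in H69 were chr17:39296235-39296378 (99.6), which an H69M peak of 100.8 overlapped, chr17:39530506-39530763 (82.3) and the 80.3 just given. Next in type II were chr12:53220631-53220832 (74.0) and chr12:53009788-53009996 (68.7) in H69, and chr12:53088605-53088849 (95.7) and chr12:53013965-53014151 (81.8) in H69M. Of these 4, the second of H69 overlapped a peak of the other line, with a score of 59.3. In type II, all but 3 peaks of each line thus scored under 100.

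**Figure D5:**
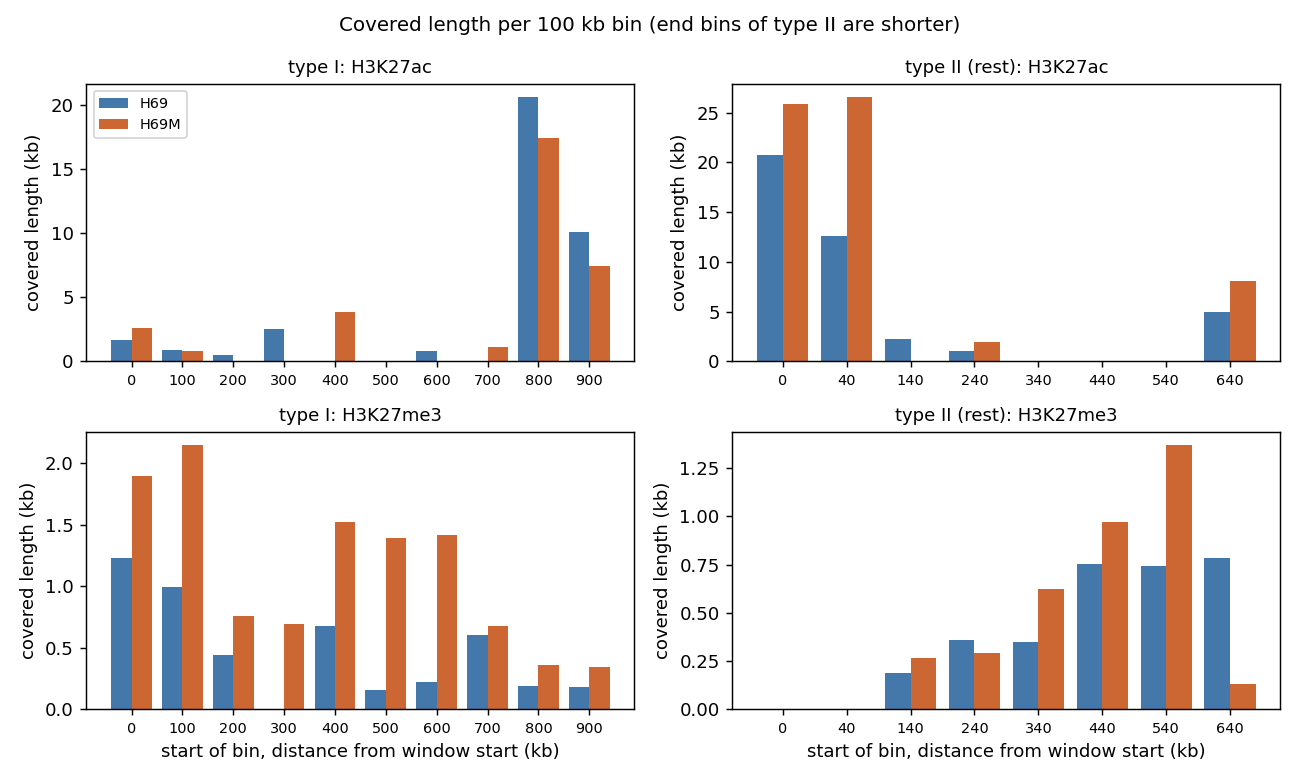
Covered length (kb, y axis) per 100 kb bin of each window (x axis, distance of the bin from the window start, kb) for H3K27ac (top) and H3K27me3 (bottom) in H69 and H69M, the end bins of type II being shorter. H3K27me3 is longer in H69M in each of the 10 type I bins, or in 7 of 10 with equal numbers of peaks, while H3K27ac is longer in H69 in the last 2. The share of such bins over the genome was not counted.

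Along type I, H3K27me3 had the greater length in H69M in 10 of 10 bins of 100 kb, or in 7 of 10 with equal numbers of peaks. The share of such bins over the genome was not counted, so bin counts of either window are not shown to be particular to it. Over the whole lists H69M covered 1.62 times the H69 length, or 1.16 times with equal numbers of peaks. In the lists as deposited, of which that of H69M is longer, the median gap between neighbouring peaks was 19.7 kb in H69 and 7.66 kb in H69M. From 39.3 to 39.4 Mb there was 1 peak in H69 and 8 in H69M, and from 39.4 to 39.5 Mb 1 and 9. Of the 10 bins, these had the largest differences in number. Several H69M peaks from 39.4 to 39.5 Mb had scores of 50.9 to 59.5, below the 61.5 at which the equal-number list starts. In type II, H3K27me3 had the greater length in H69M in 4 of 8 bins and the smaller in 2, or in 2 and 4 with equal numbers of peaks. The last bin before the KRT8 and KRT18 interval had 4 peaks over 0.785 kb in H69 and 1 over 0.131 kb in H69M.

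The marks met at few places. No H69 H3K27ac peak of the windows overlapped an H69 H3K27me3 peak (0 of 56, 0 to 6.38%, against 0.805% of the list), and no H69M H3K27ac peak overlapped an H69 H3K27me3 peak (0 of 50, 0 to 7.11%, against 1.32%). In H69M, 2 of 50 H3K27ac peaks overlapped H3K27me3 of the same line (4%, 0.488 to 13.7, against 1.56%), both in the middle of type I. The first, chr17:39203097-39203588, had an H3K27ac score of 58.8 and an H3K27me3 score of 171.2, and the second, chr17:39221651-39222217, had 88.0 and 112.7. With equal numbers of peaks in the lists, neither was left.

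Between the lines, 4 of 56 H69 H3K27ac peaks overlapped an H69M H3K27me3 peak (7.14%, 1.98 to 17.3, against 1.66%). They were 3 of the 4 H69 peaks in the middle of type I, with H69M H3K27me3 scores of 54.6, 59.5 and, at the third, 50.9 and 59.5, and the type II peak chr12:52701758-52702876, with a score of 80.0. None of the 4 had an H69M H3K27ac counterpart. With equal numbers of peaks in the lists 1 of the 4 was left, since that list of H69M H3K27me3 peaks starts at a score of 61.5.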

How the data were processed

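ChIP-seq peaks of H3K27ac and H3K27me3 were listed by the authors for H69 and H69M, 1 library for each mark and line, with 38 nucleotides read from each end per the labels' protocols. Reads were aligned with Bowtie2 to hg19 and handled with SAMtools 0.1.19, per the submitters' processing notes. Peak names in the deposited files carry the word MACS, but no source used here gives the caller's version, its settings or its use of the input. The deposited score of each peak has no stated definition. It starts at about 50 and piles up at 3100, and served only to describe and filter peaks. Read depth is unknown, and a deeper or better enriched library lists more and wider peaks.

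Start positions were made 1-based, and whole-list values used chromosomes 1 to 22 and X. A peak belonged to a window if it overlapped it by 1 bp, and its length was cut at the outer bounds. Peaks touching the KRT8 and KRT18 interval were counted there, with their whole length, and not in the rest of type II. Peaks were shared at 1 bp of overlap. Shares carry exact (Clopper-Pearson) 95% intervals (SciPy 1.17.1, Python 3.11.15), and interval counting was checked on simulated intervals. The alternatives were equal numbers of peaks (the longer list of a mark reduced by score), a score of 100 or more, the peak midpoint, and other overlap rules. The windows, lists and rules were chosen with earlier results of these data known. The named peaks were all of the KRT8 and KRT18 interval and the 5 with the highest score in each list and window, and others were named after their values were seen. Genes were named only by their order in the clusters. Planned counts over gene starts and lists of other filament, desmosome, epithelial and cell type genes were not run, since they need an hg19 gene table.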

Additional observations from a re-analysis of the deposited data

How the results depend on the processing

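The type I H3K27ac ratio stayed below 1, from 0.751 with equal numbers of peaks to 0.897, and was 0.793 without the 100 kb bin of the largest difference, an alternative added after the data were seen. The type II ratio was 1.43 to 1.73, and 1.23 under that same added alternative. The ratio of the KRT8 and KRT18 interval was 1.60 to 1.85. Over the whole lists the H3K27ac ratio was 1.42 with equal numbers of peaks and 1.64 at a score of 100 or more. The type I H3K27me3 ratio was 1.59 with equal numbers of peaks and 4.78 at a score of 100 or more, where only 2 H69 and 11 H69M peaks are left. Over the whole lists the H3K27me3 ratio was 1.16 and 2.35 in these settings. The type II H3K27me3 ratio turned from 1.15 to 0.797 with equal numbers of peaks and to 0.741 at a score of 100 or more, where 3 peaks of each line are left. At that score the percent without a counterpart was 100 for type I H3K27me3 in H69 and in H69M and 33.3 for type II in H69M. With any peak within 1000 bp counted as shared, it was 80.6 for type I in H69M. No share over the whole lists under either of these rules is given here. These percents therefore do not show whether the windows differ from the lists. The number of H69 H3K27ac peaks beside H69 H3K27me3 was 1 within 1000 bp. With equal numbers of peaks, those over H69M H3K27me3 went from 4 to 1, and H69M peaks with both marks from 2 to 0. The other 57 alternative values stayed within 1.5 times the ratio or count, or within the interval of the share. The equal-number lists kept H69M peaks from a score of 92.3 for H3K27ac and 61.5 for H3K27me3. Counts of gene starts with a peak were not made under any setting, since they need an hg19 gene table. No paired analysis was possible because each group holds 1 library. Depth is unknown, so a peak missing from a list is not shown to be absent.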

Other observations

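The ground on either side of the clusters was described in the same way, over 200 kb at each bound. Before type II, the H3K27ac length was 38.2 kb for H69 and 39.0 kb for H69M, and after it 14.6 and 20.1 kb. Before type I it was 8.18 and 11.1 kb, and after it 17.1 and 21.9 kb. The H3K27ac length was thus greater in H69M on both sides of the type I window, unlike in the window as a whole. In the last 200 kb of that window it was 30.7 kb for H69 and 24.8 kb for H69M. This difference was larger than over the whole window (37.0 and 33.2 kb). In the rest of the window the length was therefore greater in H69M, as on both sides. H3K27me3 had 4 peaks in H69 and 20 in H69M before type I, and 2 and 3 after it. Before type II it had 0 and 1, and after it 5 in H69 over 0.869 kb and 2 in H69M over 0.332 kb, the other direction.

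Some bounds fall near peaks. For H3K27ac, the H69M peak chr12:52556912-52559832 (score 669) ended 0.168 kb before the type II window, and the first H69M peak inside it, chr12:52562258-52563041, had a score of 52.0. The H69 peak closest after the type I window, chr17:39803733-39805393, had a score of 239, and the last H69 peak inside had 61.9.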
